A study of Mus musculus with 8 samples.

Results

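Live EGFP+ cells of the substantia nigra compacta (SNc) of newborn Pitx3-/- mice were compared with those of wild-type pups, on 4 of the 8 arrays of the series. SNc WT cells carried the genotype Pitx3+/+;Th-EGFP+/- and SNc KO cells the genotype Pitx3-/-;Th-EGFP+/-, all on the C57Bl/6 strain at postnatal day 1 to 4, with 2 arrays in each group. VTA WT and VTA KO cells of the same genotypes, from the ventral tegmental area (VTA), gave the other 4 arrays, which entered the model and serve below for comparison. The EGFP transgene, under the control of tyrosine hydroxylase (Th) sequences, was carried by every group and served as the gate of the sort, and frozen batches of sorted cells were pooled into each sample. The members of the comparison were the probesets with 1 gene symbol and a mean linear signal of at least 60 (5.91 on the log2 scale) in SNc WT or SNc KO, which gave 13632 probesets and 12343 genes of the 19938 genes named on the array. At this limit, a probeset of Spef2 lay just inside with a higher group mean of 5.9071 and one of Tbc1d2b just outside with 5.9068 on the log2 scale. The methods describe RNA purified in duplicate from 1 cell preparation for each genotype and region, and name no separate animals for the duplicates. The p-values thus measure the spread between these duplicates, which may be technical.

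Pitx3 is a homeodomain transcription factor that, in the brain, is expressed in midbrain dopaminergic neurons, and most of the neurons of the ventral SNc depend on it for survival before birth. Dopaminergic neurons of the dorsal SNc, many of which contain calbindin, do not, and remain in the mutant. Cells of the wild-type SNc are therefore a mixture of ventral and dorsal neurons, while the cells sorted from the mutant SNc are, by the study's own account, the dorsal neurons that survive. In such sorted pools, fewer cells of a type and less RNA per cell cannot be told apart. Ventral SNc neurons project to the dorsal striatum and are the dopaminergic neurons most affected in Parkinson disease.

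Pitx3 stood at log2 signals of 7.72 and 7.63 in SNc WT and of 7.87 and 7.94 in SNc KO. Both KO values lay above both WT values, with a difference of 0.23 (standard error 0.13) that did not pass the test (adjusted p = 0.72 from limma). Which part of the gene was deleted and which part the probes read is not given in the sources used, so this probeset checked no label. Array medians lay between 6.113 and 6.238 on all 8 arrays, and the standard deviation between the 2 arrays of a group was 0.242 in SNc WT, 0.252 in SNc KO and 0.241 in VTA WT on the log2 scale, but 0.376 in VTA KO. With weights for the quality of arrays, 0.457 for those of VTA KO, 89 probesets were called in place of 33. The 14 general neuronal markers summed to linear signals of 22380 and 22412 in SNc WT and of 21580 and 21870 in SNc KO. The 3 noradrenergic markers lay under a signal of 60 on all 4 SNc arrays, as did 3 of 4 serotonergic and 6 of 9 endothelial markers.

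Of 22112 probesets tested, 16 were higher in SNc KO than in SNc WT (0.0724%) and 17 were lower (0.0769%) at a Benjamini-Hochberg adjusted p under 0.05 from limma. Of these, 3 carry no gene symbol, and the others were 15 genes that rose and 15 that fell, each by 1 probeset. The genes that rose were led by secreted and matrix proteins (Postn, Fst, Fgf10, Sulf1 and Cthrc1), synaptic organizers (Cbln1 and Nxph1), receptors and channels (Grin2a, Grm8, Htr2a and Kcnk9), and the transcription factor Otx2. Those that fell included retinaldehyde dehydrogenases (Aldh1a1 and Aldh1a7), the G-protein regulator Rgs6, the transcription factor Sox6, the nicotinic receptor subunit Chrnb3 and the dopamine autoreceptor Drd2. The median log2 difference over the 12343 genes was 0.036, with percentiles 5 and 95 at -0.34 and 0.44. A gene with an unadjusted p under 0.05 from limma is called nominally higher or nominally lower below. Of all 12343 genes, 768 (6.22%) were nominally higher and 404 (3.27%) nominally lower. Positive differences were found in 7093 of them and negative ones in 5250. Counts within the lists below are to be read beside these shares. The adjusted test by limma gave 0 calls when SNc WT replicate 1 was left out (1128 nominal ones), as it did without the other SNc WT array (1599) or SNc KO replicate 2 (1338). It gave 1 without SNc KO replicate 1 and 2 without either VTA WT array. Each of the 30 genes kept its direction in each setting tried, these included. Leaving out an array could not change this, since in all 30 the SNc KO and SNc WT arrays did not overlap. Genes chosen by this test are likely to separate in this way, and the share over all probesets is not given.

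**Figure D1:**
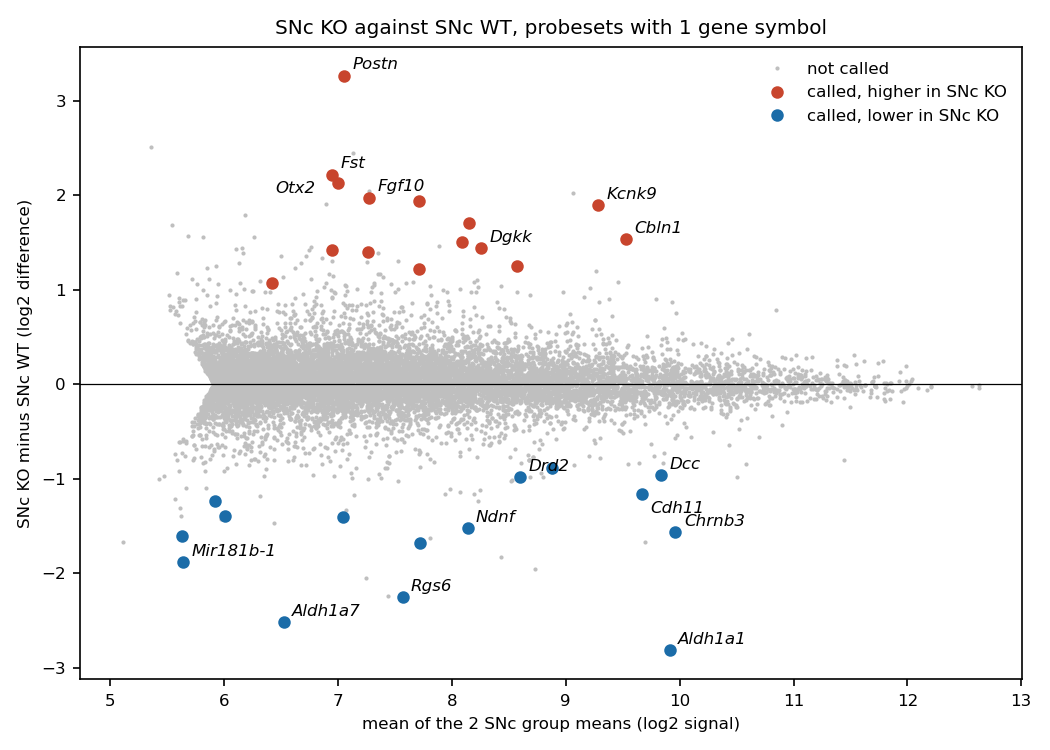
Log2 difference between SNc KO and SNc WT (vertical axis) against the mean of the 2 group means (log2 signal, horizontal axis) for the 13632 probesets with 1 gene symbol. Red and blue points are the 15 genes that rose and the 15 that fell by the adjusted test of limma, and grey points are all others.

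Among genes of the dopaminergic phenotype, Drd2 fell, while Slc6a3, Ddc, Slc18a2 and Th did not pass the test. Drd2, the D2 dopamine receptor by which these neurons sense their own transmitter, had log2 signals of 9.08 and 9.10 in SNc WT and of 8.08 and 8.13 in SNc KO. It fell by 0.98 on the log2 scale (standard error 0.10, 95% interval -1.23 to -0.74, adjusted p = 0.038 from limma). The arrays of a group lay close together. Slc6a3, the dopamine transporter, had values of 10.98 and 11.00 in SNc WT and of 9.85 and 10.17 in SNc KO (difference -0.98, adjusted p = 0.077 from limma). Ddc, the decarboxylase that makes dopamine, had values of 10.80 and 10.71 against 9.998 and 10.22 (difference -0.64, adjusted p = 0.21). Slc18a2, the vesicular monoamine transporter, had a difference of -0.32 (adjusted p = 0.59). Th, which catalyses the rate-limiting step towards dopamine and is the source of the sorting gate, stood at 10.32 and 10.04 in SNc WT and at 10.01 and 10.17 in SNc KO, so that its groups overlapped (difference -0.08, 95% interval -0.42 to 0.25, adjusted p = 0.94).

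Of the 15 measured genes of dopamine synthesis, storage, uptake and breakdown, Drd2 fell, 0 rose, and 5 were nominally lower, with a median log2 difference of -0.083. Among all 12343 genes, 3.27% were nominally lower and 6.22% nominally higher, with the median of 0.036. The remaining 2 of these 5 genes, singled out after their values were seen, were the synaptic vesicle proteins Sv2c (-0.50) and Slc10a4 (-0.30). The transcription factors that specify and maintain midbrain dopaminergic neurons had small differences. Nr4a2 stood at 10.32 and 10.25 in SNc WT and at 10.09 and 10.14 in SNc KO (difference -0.17, adjusted p = 0.73 from limma). En1 had a difference of -0.27 (adjusted p = 0.58), Foxa2 one of 0.16 (adjusted p = 0.90) and Lmx1b one of -0.04 (adjusted p = 0.97), and none of the 3 passed the test.

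**Figure D2:**
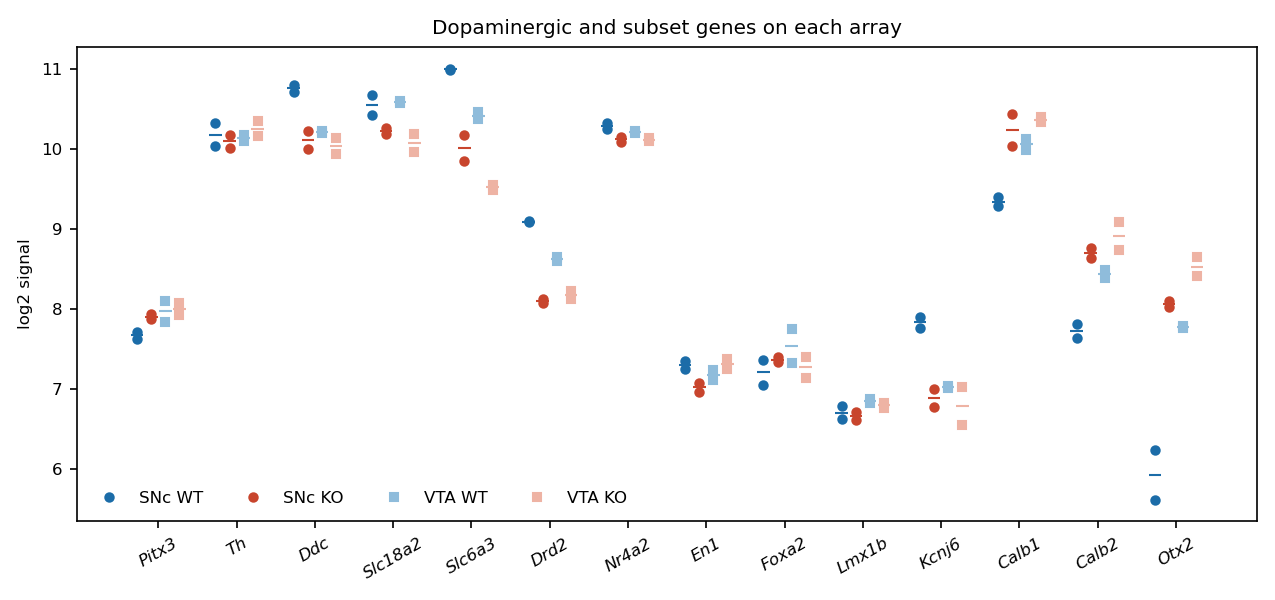
Log2 signal of 14 dopaminergic and subset genes on each of the 8 arrays, as circles for SNc and squares for VTA, with short lines at the group means. Drd2 lies lower and Otx2 higher on both SNc KO arrays than on both SNc WT arrays, while the values of Th overlap.

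Transcription factors of single subsets had the larger differences. Sox6, an SRY-box factor of ventral SNc neurons, had log2 signals of 7.77 and 7.73 in SNc WT and of 6.39 and 6.30 in SNc KO. It fell by 1.41 (standard error 0.13, 95% interval -1.71 to -1.10, adjusted p = 0.025 from limma). Otx2, a homeodomain factor of ventral VTA neurons, had log2 signals of 6.25 and 5.62 in SNc WT and of 8.03 and 8.10 in SNc KO. It rose by 2.13 (standard error 0.21, 95% interval 1.62 to 2.64, adjusted p = 0.038), and the SNc KO values lay above those of VTA WT, 7.76 and 7.79. The SNc WT arrays differed by more for Otx2 than for any of the other 14 genes that rose, and it kept its call in 8 of 11 settings with no array dropped singly and in 0 of 8 with an array dropped.

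Pou3f2, a POU-domain factor of neuronal differentiation, had values of 9.62 and 9.78 in SNc WT and of 7.79 and 7.71 in SNc KO. Its difference of -1.95 missed the threshold (adjusted p = 0.078 from limma), and the other probeset of the gene had a smaller difference of the same sign, -0.37. Lmo3, a LIM-only cofactor, stood at 10.53 on both SNc WT arrays and at 9.08 and 8.65 in SNc KO (difference -1.67, adjusted p = 0.073). Bcl11a, a zinc-finger factor of a dopaminergic subset, had values of 8.11 and 8.06 in SNc WT and of 9.13 and 8.99 in SNc KO (difference 0.98, adjusted p = 0.073). Of the 22 measured midbrain dopaminergic transcription factors, 1 rose and 1 fell, and 7 were nominally higher and 5 nominally lower. Their median was 0.18, and it was 0.056 without SNc WT replicate 1.

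Pitx factors bind a bicoid-type site, and the core TAATCC was searched on both strands (TAATCC or GGATTA) in windows from 250 bases before to 50 bases after annotated gene starts, from RefSeq on GRCm38.p6. Among the 30 called genes, 18 had windows in the table, and 3 of their 40 windows (7.5%) held the core, against 7.06% of all 32851 windows. The matches lay in 1 window each of Sox6, Otx2 and Cdh7, and the stretches around them are printed because these genes changed, with the core in capitals and the gene's own strand 5′ to 3′. A match of these letters is a description of the window and no evidence of binding. That of Sox6 (chr7:115801610-115801678, minus strand) begins 29 bases before the start, that of Otx2 (chr14:48665275-48665359, minus strand) 211 bases before it on the opposite strand, and that of Cdh7 (chr1:109982662-109982747, plus strand) 198 bases before it, also on the opposite strand.
Sox6: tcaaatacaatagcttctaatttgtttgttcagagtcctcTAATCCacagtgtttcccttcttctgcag
Otx2: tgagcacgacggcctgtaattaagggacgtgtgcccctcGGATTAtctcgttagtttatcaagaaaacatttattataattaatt
Cdh7: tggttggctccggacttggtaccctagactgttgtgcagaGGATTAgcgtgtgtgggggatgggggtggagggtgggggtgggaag

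The medians of the 17 measured SNc and ventral SNc markers and of the 20 VTA and dorsal SNc markers lay on opposite sides of the median of all genes. Of the first list, 6 genes fell (Aldh1a1, Aldh1a7, Rgs6, Ndnf, Sox6 and Drd2) and 0 rose, 15 were nominally lower, and the median was -0.98. Of the second, Otx2 rose and 0 fell, 12 were nominally higher and 0 nominally lower, and the median was 0.53. Several members of both lists were named by the study from these arrays, so their direction is not independent evidence. Calb1, the calcium-binding protein calbindin of dorsal SNc and VTA neurons, had log2 signals of 9.40 and 9.28 in SNc WT and of 10.04 and 10.44 in SNc KO (difference 0.90, adjusted p = 0.15 from limma). Kcnj6, the Girk2 channel of ventral SNc neurons, had values of 7.90 and 7.77 against 6.9996 and 6.77 (difference -0.95, adjusted p = 0.17). Neither gene passed the test. In VTA KO against VTA WT the medians of the 2 lists were -0.44 and 0.076.

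Among the 15 genes that fell, a pair of retinaldehyde dehydrogenases had the largest differences. Aldh1a1, which makes retinoic acid from retinaldehyde and marks ventral dopaminergic neurons, had log2 signals of 11.26 and 11.38 in SNc WT and of 8.33 and 8.69 in SNc KO. It fell by 2.81 (standard error 0.18, 95% interval -3.24 to -2.38, adjusted p = 0.013 from limma), which is 7.03-fold on the linear scale. The SNc KO values also lay below those of VTA KO, 9.78 and 9.45. Aldh1a7, a close paralog whose probes may also read Aldh1a1, had values of 7.83 and 7.73 in SNc WT and of 5.20 and 5.33 in SNc KO. It fell by 2.52 (standard error 0.19, adjusted p = 0.022), and its SNc KO mean lay under the signal minimum, so the size of its fall is uncertain. Of the 12 measured genes of the retinoic acid pathway, 2 were nominally higher, namely the retinal reductase Dhrs3 (difference 0.84, adjusted p = 0.33) and the retinoic acid carrier Crabp2 (0.99, adjusted p = 0.19), and 0 rose. The other gene that was nominally lower was Rbp4, the retinol carrier (-0.81), singled out after its value was seen.

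Rgs6, which accelerates the GTPase of Gi/o proteins and belongs to the R7 family of RGS proteins, had log2 signals of 8.80 and 8.59 in SNc WT and of 6.44 on both SNc KO arrays. It fell by 2.25 (standard error 0.17, 95% interval -2.67 to -1.83, adjusted p = 0.022 from limma). Among the 7 measured R7 RGS genes and partners, 1 fell and 0 rose. Gnb5, the obligate Gβ partner of the R7 family, had values of 7.15 and 7.36 in SNc WT and of 7.83 and 7.70 in SNc KO, a difference in the other direction (0.51, adjusted p = 0.31). Rgs9 had a difference of 0.36 (adjusted p = 0.50) and Gpr158, a membrane anchor of R7 RGS proteins, one of -0.41 (adjusted p = 0.30). Of the 11 measured other RGS genes, 0 rose or fell, and 1, Rgs8, was nominally lower (-0.40, adjusted p = 0.51). Rgs5, named after its value was seen and also a pericyte marker, had the largest difference of this list, 2.02. It stood at 8.27 and 7.83 in SNc WT and at 10.16 and 9.98 in SNc KO, but was not nominally higher. Its VTA KO arrays, at 10.29 and 6.22, lay far apart and enter the spread of the test.

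Subunits of nicotinic acetylcholine receptors, ion channels by which acetylcholine excites dopaminergic neurons, had negative differences in 7 of 10 cases. Chrnb3, the β3 subunit, had log2 signals of 10.74 and 10.75 in SNc WT and of 9.02 and 9.34 in SNc KO. It fell by 1.56 (standard error 0.16, 95% interval -1.94 to -1.19, adjusted p = 0.038 from limma). Chrna6, the α6 subunit that assembles with β3 in dopaminergic neurons, stood at 9.34 on both SNc WT arrays and at 7.15 and 7.87 in SNc KO (difference -1.83, adjusted p = 0.073). The 2 SNc KO arrays differed by more for Chrna6 than for Chrnb3. Of the 10 measured subunits, Chrnb3 fell and 0 rose, 5 were nominally lower (50.0%) and 0 nominally higher, and the median was -0.42. Among all genes, 3.27% were nominally lower and 6.22% nominally higher. The other nominally lower members, named after their values were seen, were Chrna5 (-0.83), Chrna3 (-0.76) and Chrnb4 (-0.66), which are neighbours in 1 gene cluster.

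Receptors for glutamate and serotonin were among the genes that rose. Grin2a, the GluN2A subunit of NMDA receptors, had log2 signals of 6.09 and 6.37 in SNc WT and of 7.62 and 7.69 in SNc KO. It rose by 1.42 (standard error 0.12, adjusted p = 0.024 from limma). Grm8, a metabotropic glutamate receptor that couples to Gi/o, had values of 7.09 and 7.12 in SNc WT and of 8.32 and 8.33 in SNc KO. It rose by 1.22 (standard error 0.11, adjusted p = 0.024), and its difference in VTA KO against VTA WT was 1.22 as well. Htr2a, the Gq-coupled serotonin 2A receptor, had values of 6.55 and 6.59 against 7.97 and 7.96 and rose by 1.40 (standard error 0.13, adjusted p = 0.031). In these 3 genes, as in all 30 called genes, the SNc KO and SNc WT arrays did not overlap, which their choice by the test makes likely.

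Of 15 measured ionotropic glutamate receptor subunits, Grin2a rose and 0 fell, 4 were nominally higher and 0 nominally lower, and the median was 0.21. The other members were Grin3a (0.56, adjusted p = 0.20), Grik2 (0.40) and Gria1 (0.35), the last 2 named after their values were seen. Of 6 metabotropic glutamate receptors, Grm8 rose and 0 fell. Of 13 GABA-A and glycine receptor subunits, 0 rose or fell and 4 were nominally higher, led by Gabrq (0.92, adjusted p = 0.46) and the glycine receptor subunit Glra2 (0.86, adjusted p = 0.22). The other 2 of them, named after their values were seen, were Glra3 (0.82) and Gabrg1 (0.46). Of the 21 Gi/o-coupled receptors and Girk channels, 1 rose, Grm8, and 1 fell, Drd2, with 7 nominally higher and 2 nominally lower. Chrm2, the M2 muscarinic receptor, had values of 4.92 and 5.69 in SNc WT and of 7.30 and 5.81 in SNc KO, so that its difference of 1.25 (adjusted p = 0.57) rested on SNc KO replicate 1.

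Kcnk9, the TASK-3 channel that carries background potassium current, had log2 signals of 8.39 and 8.29 in SNc WT and of 10.31 and 10.16 in SNc KO. It rose by 1.90 (standard error 0.15, 95% interval 1.54 to 2.25, adjusted p = 0.022 from limma), which is 3.72-fold on the linear scale. Of 61 measured potassium channel subunits, Kcnk9 rose and 0 fell, 9 were nominally higher and 4 nominally lower, and the median was 0.12. Kcnh7, an Erg channel, had a difference of 0.77 (adjusted p = 0.51) and Kcnd3, a subunit of A-type channels, one of -0.47 (adjusted p = 0.30). Of 30 measured sodium, calcium and HCN channel subunits, 0 rose or fell and 4 were nominally higher (13.3%, against 6.22% of all genes). They were Cacng3 (0.61, adjusted p = 0.52) and the sodium channel Scn1a (0.60, adjusted p = 0.49), and, named after their values were seen, Cacng5 (0.50) and Cacna1g (0.39). TRPC cation channels went both ways without passing the test, with Trpc4 at 1.17 (adjusted p = 0.17), Trpc5 at 0.87 (adjusted p = 0.12) and Trpc6 at -0.99 (adjusted p = 0.35).

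Calcium-binding proteins, which buffer calcium entry and are used to tell dopaminergic subsets apart, included 1 gene that fell. Pvalb, parvalbumin, had log2 signals of 6.66 and 6.41 in SNc WT and of 5.26 and 5.35 in SNc KO. It fell by 1.23 (standard error 0.13, adjusted p = 0.045 from limma), and its SNc KO mean lay under the signal minimum. Of the 19 measured members, 0 rose, and 5 were nominally higher and 1 nominally lower, with a median of 0.16. Calb2, calretinin, had values of 7.81 and 7.64 against 8.64 and 8.76 (difference 0.97, adjusted p = 0.12), and Necab1 had a difference of 1.10 (adjusted p = 0.14). Dgkk, a diacylglycerol kinase of lipid signalling, had values of 7.63 and 7.44 in SNc WT and of 8.89 and 9.06 in SNc KO. It rose by 1.44 (standard error 0.12, adjusted p = 0.022), while both VTA groups lay between 8.69 and 8.94.

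Cbln1 and Nxph1 encode secreted proteins that bind neurexins at synapses. Cbln1 had log2 signals of 8.89 and 8.62 in SNc WT and of 10.31 and 10.28 in SNc KO, and rose by 1.54 (standard error 0.15, 95% interval 1.17 to 1.90, adjusted p = 0.038 from limma). Nxph1 had values of 7.36 and 7.32 against 8.70 and 8.97 and rose by 1.499 (standard error 0.12, adjusted p = 0.022). Its other probeset had a difference of 0.998 and did not pass (adjusted p = 0.41). Of the 28 measured synaptic organizers, these 2 genes rose and 0 fell, 6 were nominally higher and 3 nominally lower, and the median was 0.20. The nominally lower members were Slitrk4 (-0.51, adjusted p = 0.26), Clstn2 (-0.51, adjusted p = 0.30) and, named after its value was seen, Lrrtm2 (-0.41). Of 43 synaptic vesicle and exocytosis genes, 0 rose or fell, with a median of -0.0068. Nominally higher were 4 (9.30%, against 6.22% of all genes) and nominally lower 5 (11.6%, against 3.27%). Syn2, a synapsin, came nearest, with values of 7.31 and 7.37 in SNc WT and of 8.32 and 8.24 in SNc KO (difference 0.94, adjusted p = 0.054).

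Of the 25 measured neuropeptide genes, 20 had positive differences, against 7093 of all 12343 genes, and 0 passed the adjusted test. In VTA KO against VTA WT the median difference of the 25 was 0.035. In SNc KO against SNc WT, 12 of them were nominally higher (48.0%) and 1 nominally lower, and the median was 0.39. Among all genes, 6.22% were nominally higher and 3.27% nominally lower, with the median of 0.036. Of the 12, Adcyap1, Cck, Grp, Nts and Tac1 are also on the list of VTA and dorsal SNc markers, so that the 2 lists repeat each other in part. Crh, corticotropin-releasing hormone, had log2 signals of 5.76 and 5.18 in SNc WT and of 6.72 and 7.003 in SNc KO (difference 1.39, adjusted p = 0.13 from limma). In VTA KO against VTA WT its difference was -1.08, but its SNc WT and VTA KO means lay under the signal minimum, so that the sizes of both are uncertain. Adcyap1, the neuropeptide PACAP, had values of 6.21 and 5.86 against 7.33 and 7.45 (difference 1.35, adjusted p = 0.17). Npy, neuropeptide Y, was the member that was lower, with values of 8.12 and 8.18 against 7.64 and 7.18 (difference -0.74, adjusted p = 0.26). Of 26 neuropeptide receptors, 0 rose or fell, and the somatostatin receptor Sstr2 had the largest positive difference (1.05, adjusted p = 0.14).

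Of the 10 measured genes of glutamate and GABA transmission, 9 had positive differences, with a median of 0.29 that was 0.44 without SNc KO replicate 2. Slc17a6, the vesicular glutamate transporter VGLUT2, had log2 signals of 9.06 and 8.78 in SNc WT and of 10.04 and 9.96 in SNc KO (difference 1.08, adjusted p = 0.081 from limma). Slc32a1, the vesicular GABA transporter, had values of 8.16 and 8.28 against 9.08 and 9.23 (difference 0.94, adjusted p = 0.073), and Gad2, which makes GABA, had a difference of 0.44 (adjusted p = 0.51). Neither transporter passed the test. The 10 GABAergic neuron markers on the array summed to linear signals of 1221 and 1305 in SNc WT and of 1784 and 1693 in SNc KO, and all 7 that were measured had positive differences (median 0.22). The 8 glutamatergic and red nucleus markers summed to 863 and 770 against 1407 and 1358, with 5 of the 8 under a signal of 60 on all 4 SNc arrays. This sum includes Slc17a6, also on the list of VTA and dorsal SNc markers, and the other of the 2 measured members had a difference of 0.25. The GABAergic sum includes Slc32a1 and Gad2, so that both sums repeat genes given above. The part of other neurons in the rises of Grin2a, Grm8, Cbln1 and Kcnk9 was not tested.

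Several of the genes that rose encode secreted or matrix proteins. Postn, periostin, a matrix protein that binds integrins, had log2 signals of 5.52 and 5.33 in SNc WT and of 8.58 and 8.80 in SNc KO. It rose by 3.26 (standard error 0.13, 95% interval 2.95 to 3.58, adjusted p = 0.0027 from limma), and its SNc WT mean lay under the signal minimum. Fst, the activin antagonist follistatin, had values of 5.89 and 5.80 against 8.03 and 8.09 and rose by 2.22 (standard error 0.10, adjusted p = 0.0027), also from a mean under that minimum. Sulf1, which removes sulfate from heparan sulfate chains, had values of 6.79 and 6.69 against 8.66 and 8.70 and rose by 1.94 (standard error 0.11, adjusted p = 0.0074). Postn, Fst and Sulf1 kept their calls with the replicate number in the model (adjusted p = 0.023, 0.023 and 0.048), in which no other probeset was called.

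Fgf10, a secreted fibroblast growth factor, had log2 signals of 6.41 and 6.16 in SNc WT and of 8.14 and 8.38 in SNc KO. It rose by 1.97 (standard error 0.17, adjusted p = 0.022 from limma), which is 3.92-fold on the linear scale. Cthrc1, a secreted collagen-triple-helix protein, had values of 7.27 and 7.33 against 9.05 and 8.95 and rose by 1.70 (standard error 0.18, adjusted p = 0.038). Fgf20, another growth factor of this family, had a difference in the other direction, with values of 7.86 and 7.88 against 6.78 and 7.20 (-0.88, adjusted p = 0.19). Of 18 measured FGF ligands and receptors, Fgf10 rose and 0 fell, with 2 nominally higher and 3 nominally lower. Of 32 activin, BMP and TGF-beta genes, Fst rose and 0 fell, with 5 nominally higher and 0 nominally lower. They include Fstl1, a follistatin-like protein (0.93, adjusted p = 0.32), and, named after their values were seen, the BMP antagonist Grem1 (0.80) and the ligands Bmp5 (0.78) and Gdf11 (0.43).

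In the other direction, Ndnf, a secreted neurotrophic factor, had log2 signals of 8.84 and 8.96 in SNc WT and of 7.37 and 7.38 in SNc KO. It fell by 1.52 (standard error 0.13, adjusted p = 0.022 from limma). Adamts6, a matrix metalloprotease, had values of 6.47 and 6.37 against 4.71 and 4.94 and fell by 1.60 (standard error 0.14, adjusted p = 0.024), to a mean under the signal minimum. Its VTA values, all between 5.04 and 5.34, lay under that minimum too. Of 22 neurotrophic and insulin-like growth factors and receptors, Ndnf fell and 0 rose, with 2 nominally higher and 3 nominally lower, among them Igfbp5 (-0.76, adjusted p = 0.41). Bdnf, the neurotrophin, stood at 7.04 and 6.91 in SNc WT and at 6.81 and 6.93 in SNc KO (difference -0.10, 95% interval -0.41 to 0.20, adjusted p = 0.91).

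Of the 82 measured matrix genes and matrix enzymes, 2 rose (Postn and Sulf1) and 1 fell (Adamts6), 12 were nominally higher and 4 nominally lower, and the median was 0.099. Markers of contractile cells also differed between the SNc groups. The 13 pericyte and smooth muscle markers on the array summed to linear signals of 966 and 901 in SNc WT and of 2422 and 2188 in SNc KO, while the VTA arrays lay at 2964 and 2187 in VTA WT and at 2750 and 712 in VTA KO. All 9 measured markers had positive differences (median 1.13), and 0 rose at the adjusted p. The test takes its spread from all 8 arrays, and the 2 VTA KO arrays lay far apart for these markers. Their p-values therefore do not measure the spread within the SNc groups alone. Of the defining markers, Acta2, smooth muscle actin, had values of 5.42 and 5.15 against 7.24 and 6.91 (difference 1.79, adjusted p = 0.58) and Vtn, vitronectin, had values of 5.65 and 6.24 against 7.89 and 7.81 (1.91, adjusted p = 0.41). VTA KO replicate 2, on which Acta2 stood at 5.73, had a log2 signal of 7.67 for Postn, against 7.51 on VTA KO replicate 1, on which Acta2 stood at 8.11. These are values of 1 array each in another region, and they do not measure the part of such cells in the SNc. The 12 markers of meningeal fibroblasts, which also make matrix, summed to 590 and 577 in SNc WT and to 750.0 and 719 in SNc KO, with 7 of the 12 under a signal of 60 on all 4 SNc arrays. All 5 that were measured had positive differences (median 0.21), the largest being those of Foxd1 (1.11, adjusted p = 0.54) and Igf2 (0.85, adjusted p = 0.53). The part of pericytes and meningeal cells in the rises of Postn, Sulf1 and Cthrc1 was not tested.

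**Figure D3:**
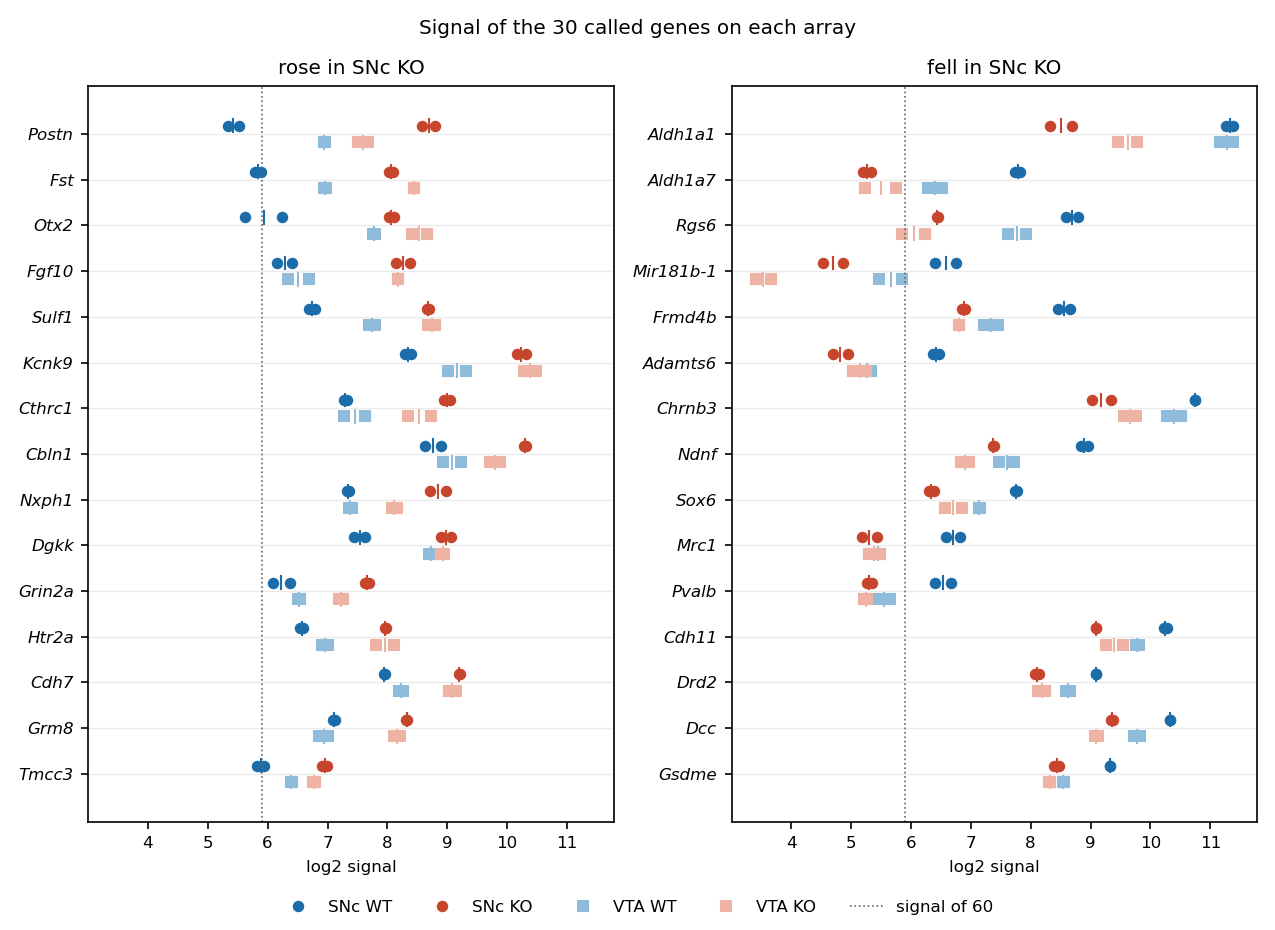
Log2 signal (horizontal axis) of the 15 genes that rose and the 15 that fell on each of the 8 arrays, with circles for SNc, squares for VTA and short lines at the group means. The dotted line marks a linear signal of 60, under which the SNc WT means of Postn, Fst and Tmcc3 and the SNc KO means of Aldh1a7, Mir181b-1, Adamts6, Mrc1 and Pvalb lie.

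Among adhesion and guidance genes, members of 1 family went in opposite directions. Cdh7, a type II cadherin, had log2 signals of 7.94 and 7.95 in SNc WT and of 9.21 and 9.19 in SNc KO, and rose by 1.25 (standard error 0.10, adjusted p = 0.022 from limma). Cdh11, another type II cadherin, had values of 10.22 and 10.28 against 9.09 on both KO arrays and fell by 1.16 (standard error 0.12, adjusted p = 0.040). Cdh6 (1.04, adjusted p = 0.089) and Cdh8 (-0.84, adjusted p = 0.073) did not pass. Of the 25 measured cadherins and non-clustered protocadherins, 1 rose and 1 fell, with 9 nominally higher and 3 nominally lower. Cdh8 stood at 11.02 and 10.98 in SNc WT and at 10.14 and 10.19 in SNc KO.

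Dcc, the netrin receptor that guides dopaminergic axons, had log2 signals of 10.32 on both SNc WT arrays and of 9.35 and 9.38 in SNc KO. It fell by 0.96 (standard error 0.10, 95% interval -1.20 to -0.72, adjusted p = 0.038 from limma). Of 41 measured netrin, Slit, semaphorin, plexin and neuropilin genes, Dcc fell and 0 rose, with 9 nominally higher and 2 nominally lower. Nrp2, a semaphorin receptor, had values of 6.92 and 6.79 against 7.68 and 7.74 (difference 0.86, adjusted p = 0.073), and Plxnc1, a plexin, one of 0.92 (adjusted p = 0.13). Of 12 Eph receptors and ephrins, 0 rose or fell, with Epha4 at -1.16 (adjusted p = 0.073), Epha5 at -0.76 (adjusted p = 0.11) and the ligand Efnb2 at 1.17 (adjusted p = 0.16). In the Wnt pathway, 0 of 33 genes rose or fell, and Wnt7a, a ligand, came nearest with values of 5.52 and 5.45 against 6.59 and 6.95 (difference 1.29, adjusted p = 0.070).

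Another group of genes that changed is less known in these neurons. Frmd4b, a FERM-domain scaffold, had log2 signals of 8.46 and 8.66 in SNc WT and of 6.90 and 6.86 in SNc KO, and fell by 1.68 (standard error 0.13, adjusted p = 0.022 from limma). Gsdme, a gasdermin, had values of 9.33 and 9.32 against 8.40 and 8.48 and fell by 0.89 (standard error 0.10, adjusted p = 0.045), but its other probeset had a difference of -0.043 (adjusted p = 0.97), and the probesets of this gene differ. Tmcc3, a coiled-coil membrane protein, had values of 5.94 and 5.83 against 6.91 and 6.99 and rose by 1.07 (standard error 0.10, adjusted p = 0.033). Mrc1, the mannose receptor of macrophages, had values of 6.59 and 6.81 against 5.43 and 5.19 and fell by 1.40 (standard error 0.14, adjusted p = 0.038), to a mean under the signal minimum. The 16 microglia and macrophage markers summed to linear signals of 910 and 912 in SNc WT and of 824 and 777 in SNc KO, and 9 of the 16 were under a signal of 60 on all 4 SNc arrays. Of the 6 that were measured, 3 had negative differences, Mrc1, C1qc (-0.62) and Cd68 (-0.42), and 3 had positive ones, Cx3cr1 (0.18), Lyve1 (0.14) and Trem2 (0.052), those other than Mrc1 and C1qc being named after their values were seen. The part of macrophages in the fall of Mrc1 was not tested.

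The array also reads microRNA genes, through probes that cannot separate the precursor from the mature form. Mir181b-1 had log2 signals of 6.41 and 6.75 in SNc WT and of 4.87 and 4.53 in SNc KO. It fell by 1.88 (standard error 0.21, adjusted p = 0.047 from limma), to a mean under the signal minimum, and its call held in 2 of 10 settings with no array left out. Its VTA values, 5.47 and 5.86 in VTA WT and 3.41 and 3.66 in VTA KO, were all under that minimum and allow no comparison. The neighbouring Mir181a-1, in the same cluster on chromosome 1, was under the signal minimum in all groups and untested, with values of 5.32 and 4.41 against 3.78 and 4.36. The copies of the family at other loci did not pass the test, with differences of -0.27 for Mir181b-2, 0.16 for Mir181d and 0.47 for Mir181c, whose adjusted p was at least 0.73. The mature products are printed, from RefSeq on GRCm38.p6, to show that neighbours of the cluster share their seed, bases 2 to 8 in capitals, while Mir7b, the gene with the next largest difference, has another.
mmu-miR-181b-5p (chr1:137966650-137966673, plus strand): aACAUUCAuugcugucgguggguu
mmu-miR-181a-5p (chr1:137966468-137966490, plus strand): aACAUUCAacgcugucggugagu
mmu-miR-7b-5p (chr17:56243017-56243040, plus strand): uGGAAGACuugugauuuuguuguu

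Mir7b had log2 signals of 7.81 and 7.67 in SNc WT and of 6.76 and 6.06 in SNc KO, a difference of -1.33 that did not pass (adjusted p = 0.31 from limma). The other loci of this microRNA family, Mir7-1 and Mir7-2, had differences of -0.12 (under the signal minimum, untested) and -0.078 (adjusted p = 0.93). Of 104 measured microRNA genes, Mir181b-1 fell and 0 rose, with 4 nominally higher and 8 nominally lower and a median of 0.019. The largest positive differences were those of Mir103-2 (0.94, adjusted p = 0.42) and Mir370 (0.76, adjusted p = 0.45).

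Lists of stress and metabolism showed few differences. Of 77 measured subunits of oxidative phosphorylation, 0 rose or fell, with a median of 0.065. Nominally higher were 3 (3.90%, against 6.22% of all genes), namely Cox7a1 (0.74), Ndufa4l2 (0.65) and, named after its value was seen, Ndufa8 (0.33). Of 33 antioxidant and glutathione enzymes, 0 rose or fell and 3 were nominally higher (9.09%, against 6.22% of all genes). These were led by Gpx3 (1.03, adjusted p = 0.45) and Gsta4 (0.74, adjusted p = 0.24), the other being Gstp1 (0.37). Of 15 familial Parkinson disease genes, 0 rose or fell, and Dnajc6, auxilin, had a difference of -0.38 (adjusted p = 0.37). Of 24 genes of apoptosis and the p53 response, 0 rose or fell, and Xiap, an inhibitor of caspases, had a difference of -0.44 (adjusted p = 0.50). Of 16 immediate early and dissociation stress genes, 0 rose or fell, with Jun at -0.32 and Jund at 0.26.

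**Figure D4:**
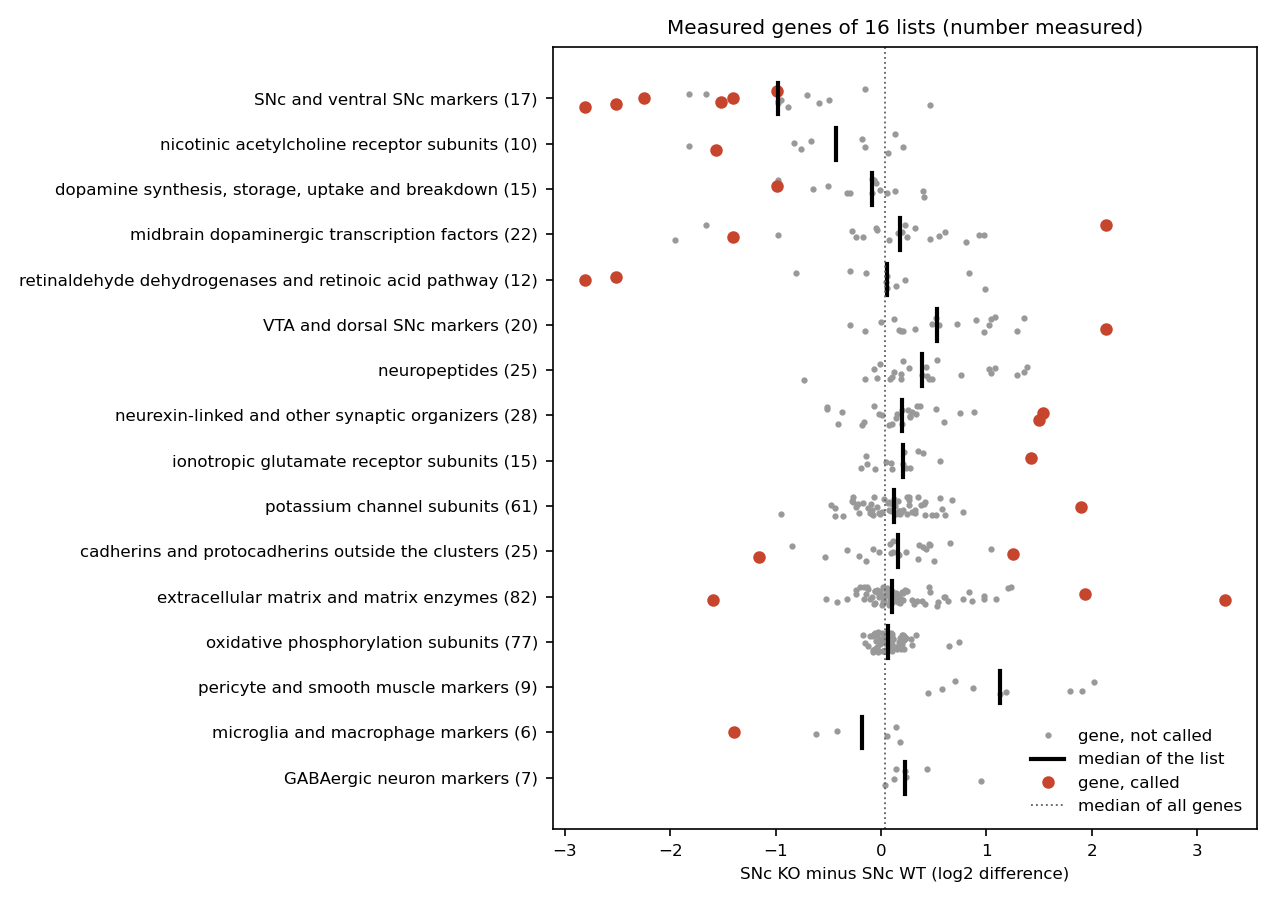
Log2 difference between SNc KO and SNc WT of each measured gene (points) of 16 lists, with the number measured in brackets, the median of each list as a black line and the median of all genes as a dotted line. Red points are genes called at an adjusted p under 0.05 from limma. The medians run from -0.98 for SNc and ventral SNc markers to 1.13 for pericyte and smooth muscle markers.

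The study's methods set a p of 0.05, a fold of 1.5 and a signal of 60 as limits, without naming an adjustment, and the p was taken here as unadjusted. Past all of these, 287 of the 13632 probesets were higher (2.11%) and 179 lower (1.31%). Among the largest falls beyond the 15 genes were Nos1ap, an adaptor of neuronal nitric oxide synthase, with log2 signals of 8.71 and 8.40 in SNc WT and of 6.90 and 5.73 in SNc KO (difference -2.24, adjusted p = 0.12 from limma), and Otor, a secreted protein, with 8.56 and 7.97 against 6.14 and 6.30 (-2.05, adjusted p = 0.15). The SNc KO arrays differed for Nos1ap, and its other probeset had a difference of -0.57. Fam210b, a mitochondrial protein, stood at 8.55 and 8.69 against 6.92 and 7.07 (-1.63, adjusted p = 0.073), and Rreb1, a zinc-finger factor, had a difference of -1.43 (adjusted p = 0.073). A probeset annotated to Mpp6 had a difference of -1.47 (adjusted p = 0.089), with -0.83 for the other, and Adam4 one of -1.21 (adjusted p = 0.16).

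Among the largest rises at these thresholds was Prss35, a serine protease homolog, with log2 signals of 6.02 and 6.47 in SNc WT and of 8.12 and 8.47 in SNc KO (difference 2.04, adjusted p = 0.11 from limma). Armc2, an armadillo-repeat protein, had values of 4.88 and 5.19 against 6.99 and 6.195 (1.56, adjusted p = 0.24), with 0.68 for its other probeset. Hmcn1, a matrix protein, had 2 probesets among them, with differences of 2.50 and 1.56, while its 21 other tested probesets had differences from -0.97 to 0.58. The remaining ones were Myl9 (2.45), Nexn (1.69) and Cald1 (1.47), which belong to the contractile apparatus, Gng11 (1.566), a G-protein subunit, and the pericyte markers Vtn and Acta2 above. None of these passed the adjusted test (adjusted p between 0.29 and 0.57 for Myl9, Nexn, Cald1 and Gng11). The spread in that test includes the VTA arrays, and Myl9 stood at 5.42 on VTA KO replicate 2 against 8.93 on VTA KO replicate 1.

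The VTA arrays, in which the Pitx3-dependent neurons are still present at birth by the study's account, gave values of the same genes in other cells. They were not free of the choice of the 30 genes, since they shared the estimate of the spread and the signal filter, although their differences between genotypes were not used. Mir181b-1, Adamts6, Mrc1 and Pvalb lay under the signal minimum in both VTA groups, so that their VTA differences are between values not above background and are not counted. In VTA KO against VTA WT, all 15 genes that rose had positive differences and all 11 of the others that fell had negative ones, while 49.4% of the 13401 probesets measured in both regions had the same sign. The median log2 difference in VTA was 0.85 for the genes that rose, where it was 1.54 in SNc, and -0.67 for the 11 that fell, where it was -1.52 in SNc. Smaller values in VTA are also what choosing genes by their SNc values gives.

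The effects in the 2 regions were tested against each other, and 0 of 22112 probesets passed at an adjusted p under 0.05 from limma (2186 at an unadjusted p under 0.05). Postn came nearest, with a difference of 0.64 in VTA and of 3.26 in SNc, which is 2.62 apart (standard error 0.18, 95% interval 2.17 to 3.06, adjusted p = 0.0995). Grm8, whose differences were 0.00054 apart (95% interval -0.36 to 0.36), lay at the other end. Fgf10 had differences of 1.97 in SNc and 1.67 in VTA (0.30 apart, interval -0.26 to 0.87). Rgs6 fell by 2.25 in SNc and had a difference of -1.73 in VTA (interval of the difference -1.11 to 0.064). Dgkk had differences of 1.44 in SNc and 0.20 in VTA (adjusted p of the difference 0.17). Without VTA KO replicate 1, 13 probesets passed this test, among them Postn and the pericyte genes Rgs5 and Myl9, and without VTA KO replicate 2, 0 passed (3826 at an unadjusted p under 0.05).

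**Figure D5:**
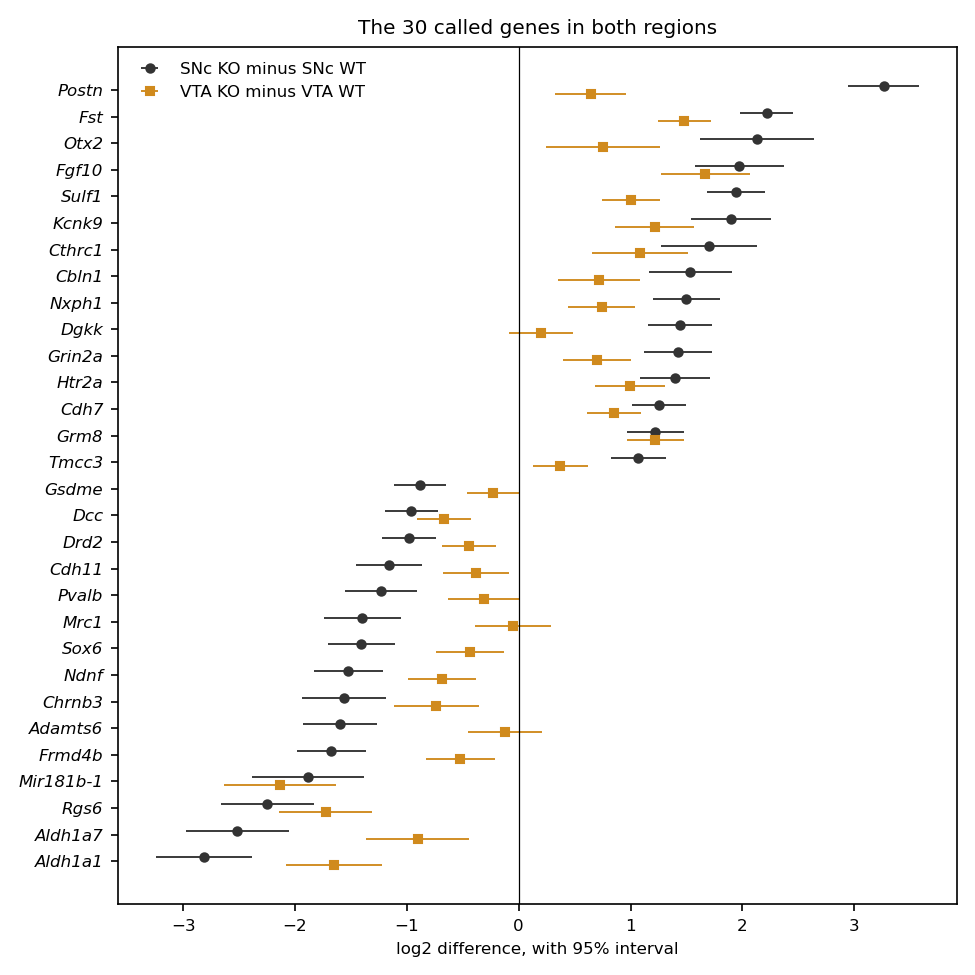
Log2 difference with its 95% interval from limma for the 30 genes that changed in SNc KO against SNc WT (dark circles), beside the same difference in VTA KO against VTA WT (orange squares). Both points of every gene lie on the same side of 0 (the VTA values of Mir181b-1, Adamts6, Mrc1 and Pvalb are under the signal minimum), and those of Grm8 coincide at 1.22.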

How the data were processed

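Log2 expression values of 8 arrays (Affymetrix Mouse Gene 1.0 ST) were used as deposited by the authors, who computed them with RMA (RMA Express by the methods) from linearly amplified RNA. No source used here gives their versions or the genome build. Samples were grouped by the genotype and region in their labels. In R 4.3.3, limma 3.58.1 fitted 1 mean for each group to all 8 arrays, over the 22112 of 35512 probesets with a group mean linear signal of at least 60. SNc KO was compared with SNc WT, and that difference with the one in VTA, with Benjamini-Hochberg adjustment over all probesets tested. The methods name the local pooled error (LPE) algorithm as a normalization, and an LPE test was run as an alternative. The code of the fit was checked on simulated arrays with independent noise, which does not bear on the calls themselves. Having 2 arrays in each group limits the precision.

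Symbols came from the platform annotation, checked through 19856 gene IDs (0 symbols changed). A probeset had 1 symbol in 21789 cases, several in 1621 and none in 12102. For a gene with several probesets, lists used the one of highest mean over the 8 arrays. The members and the 52 gene lists were chosen with earlier results of these data known, and lists are described by counts and medians without a test. Genes were named if called, if among the 10 largest rises or falls at the thresholds of the methods (without microRNA, receptor-cluster and unnamed genes), if among the 2 largest differences of a list in each direction at an unadjusted p under 0.05, or if they are established markers. Promoter and microRNA sequences came from RefSeq (GRCm38.p6). The replicate numbers did not pair samples (correlations of deviations from 0.0058 to 0.098).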

Additional observations from a re-analysis of the deposited data

How the results depend on the processing

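The number of calls at the adjusted p moved with several settings, and the cause was not tested. Against 16 higher and 17 lower probesets, there were 8 and 6 with no signal filter, 0 and 0 with the 4 SNc arrays alone (2435 at an unadjusted p under 0.05), 51 and 38 with array weights, and 148 and 174 with the LPE test, which called 26 of the 33. With the replicate number as a block, 3 were higher and 0 lower, although the numbers do not pair the samples. With an array left out, between 0 and 16 were higher and between 0 and 15 lower. The difference between regions gave 0 to 13 probesets when an array was left out (1364 to 3826 at an unadjusted p under 0.05) and 0 in every other setting. A higher signal minimum, a minimum in the SNc groups, quantile normalization, median subtraction, a variance trend and robust moderation kept both counts within 1.5 times. The counts at the thresholds of the methods stayed within that range in all settings. With an array left out, the difference of Th ranged from -0.22 to 0.056, above 0 without SNc WT replicate 1, and that of Lmx1b from -0.12 to 0.042, above 0 without SNc WT replicate 1 and without SNc KO replicate 2 (0.011). Of the list medians recomputed, 980 moved by less than the spread between arrays and 37 by more, among them that of nicotinic receptor subunits (-0.76 at a signal minimum of 100) and that of calcium-binding proteins (0.32) and of glutamate and GABA transmission genes (0.43) without SNc WT replicate 2. The number of arrays, 2 in each group, limits what can be told apart.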

Other observations

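Genes of the Y chromosome had lower signals in the SNc KO pools. Eif2s3y had log2 signals of 7.96 and 8.20 in SNc WT and of 7.27 and 7.41 in SNc KO (difference -0.74, adjusted p = 0.22 from limma), Kdm5d a difference of -0.56 (adjusted p = 0.23), and Uty one of -0.50 (adjusted p = 0.71). Xist, expressed from the inactive X chromosome, stood at 9.15 and 8.78 in SNc WT and at 9.25 and 9.34 in SNc KO (difference 0.33, adjusted p = 0.81). Pools of both groups held both kinds of signal. Srsy, a repeated gene with 19 tested probesets in the array's annotation, had differences from -1.23 to -0.74 in all of them, none of which passed the test. These probesets share sequence and are no separate measurements.

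Olfactory and vomeronasal receptor genes lay mostly near the signal minimum. Of 199 measured, 137 had negative differences and 0 passed the adjusted test. Nominally lower were 16 (8.04%, against 3.27% of all genes) and nominally higher 6 (3.02%, against 6.22%). Of 1190 such genes on the array, only these 199 reached the signal minimum, some of them through SNc WT alone. For genes so near the minimum this filter can itself set the direction, so these shares and those of all genes are not alike. The median of -0.16 became -0.038 without SNc WT replicate 1. Olfr1045 illustrates this, with log2 signals of 6.89 and 4.998 in SNc WT and of 4.42 and 4.14 in SNc KO (difference -1.67, adjusted p = 0.50 from limma).

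Of the probesets that passed the adjusted test, 3 were without a gene symbol. Probeset 10355984 had log2 signals of 10.50 on both SNc WT arrays and of 9.32 and 9.46 in SNc KO, and fell by 1.11 (adjusted p = 0.040 from limma). Probeset 10341823 fell by 2.28 (adjusted p = 0.038), and probeset 10340452 rose by 1.77 (adjusted p = 0.038).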
